A study of Mus musculus with 9 samples.

Results

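The region described here spans chromosome 2 from 113200000 to 113900000 (mm10) and holds the genes Fmn1 and Grem1 together with the limb enhancers that act on Grem1. Every peak of H3K27ac (histone H3 acetylated at lysine 27, which is found at promoters and enhancers in use) that lay in these bounds was taken as a member, by position alone. There were 48 such peaks among 91822 in all: 15 of 25096 in wild-type (WT), 8 of 32085 in Shh-/- and 25 of 34641 in Shh-/-;Gli3-/- forelimb buds. All were mouse embryos at E10.5 (embryonic day) with 33 to 34 somites. The labels give a mixed strain background, and the study's methods give Swiss Webster for the mutant alleles. Beside WT littermates there were Shh-/- embryos, which lack the ligand Sonic hedgehog (SHH), and Shh-/-;Gli3-/- embryos, which lack SHH and also GLI3, through which most repression by the Hedgehog (HH) pathway acts in limb buds. The alleles are constitutive nulls, so SHH and GLI3 were missing from the whole embryo and not from the limb bud alone. Loss of the genes could not be checked, because no list had a peak at Shh or within 10 kb of it, and the Gli3 peaks (covering 7.05 kb for WT, 7.2 kb for Shh-/- and 13.7 kb for Shh-/-;Gli3-/-) were not compared with the extent of the deletion. Each immunoprecipitation used the pair of forelimb buds of a single embryo, and each genotype had 2 H3K27ac libraries and 1 input but a single peak list, without values per library. The differences below therefore have no check against the spread between embryos, and no test was made. Because whole limb buds were used, fewer acetylated cells and less acetylation per cell cannot be told apart.

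Grem1 encodes Gremlin 1, a secreted antagonist of bone morphogenetic proteins (BMPs). In the limb bud mesenchyme it links SHH in the posterior margin to fibroblast growth factors (FGFs) in the apical ectodermal ridge: SHH keeps Grem1 expressed, GREM1 shields the ridge from BMPs, and FGFs from the ridge maintain Shh. Fmn1 encodes Formin 1, an actin nucleator. It lies next to Grem1, and its introns carry enhancers of Grem1, among them GRE1, a GLI-bound limb enhancer. Without SHH, GLI proteins are processed into repressors, and the loss of GLI3 removes most of that repression.

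The sequences of 6 stretches are shown because the comparisons below turn on them. They were read from the plus strand of GRCm38.p6 with the listed positions counted from 1. The lists do not state where counting starts, so each could be shifted by 1 base. Capitals mark matches to the GLI motif GACCACCCA with 1 differing letter, and to the E-box CATCTG, on either strand. The first is the peak near GRE1, in intron 15 of Fmn1 (chr2:113641350-113641549), which was listed in Shh-/-;Gli3-/- alone. The second is the Shh-/-;Gli3-/- peak before the inner start of Fmn1 (chr2:113440800-113440999). The third is the 200 bp around the largest statistic of the strongest peak listed in Shh-/-;Gli3-/- alone, in intron 7 (chr2:113538275-113538474). Next come the bases that a Shh-/- peak in intron 8 (chr2:113580700-113580899) and a WT peak in intron 9 (chr2:113582350-113582549) shared with the widest Shh-/-;Gli3-/- peak of Fmn1. The last is a WT peak in a coding exon of Fmn1 that no mutant list held (chr2:113525550-113525699).
GRE1, double mutant: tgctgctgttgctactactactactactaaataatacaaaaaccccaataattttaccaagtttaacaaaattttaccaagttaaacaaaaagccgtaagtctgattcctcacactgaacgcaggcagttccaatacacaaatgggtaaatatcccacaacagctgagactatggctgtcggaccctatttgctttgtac
Inner Fmn1 start: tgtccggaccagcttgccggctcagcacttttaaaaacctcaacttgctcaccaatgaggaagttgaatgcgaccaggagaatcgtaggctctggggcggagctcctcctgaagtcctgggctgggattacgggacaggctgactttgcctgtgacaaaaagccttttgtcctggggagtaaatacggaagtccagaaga
Intron 7: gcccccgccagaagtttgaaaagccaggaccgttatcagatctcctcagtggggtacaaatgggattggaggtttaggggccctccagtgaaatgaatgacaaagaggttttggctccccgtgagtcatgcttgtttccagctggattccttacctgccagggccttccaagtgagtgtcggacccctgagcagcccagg
Intron 8: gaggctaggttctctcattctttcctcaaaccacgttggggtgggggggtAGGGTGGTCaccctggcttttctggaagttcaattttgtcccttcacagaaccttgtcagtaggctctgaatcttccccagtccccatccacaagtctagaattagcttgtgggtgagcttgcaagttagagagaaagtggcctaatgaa
Intron 9: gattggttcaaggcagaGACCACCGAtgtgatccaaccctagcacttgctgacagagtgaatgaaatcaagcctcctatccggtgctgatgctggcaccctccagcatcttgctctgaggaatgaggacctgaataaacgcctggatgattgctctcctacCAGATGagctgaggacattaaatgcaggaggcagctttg
Exon, WT: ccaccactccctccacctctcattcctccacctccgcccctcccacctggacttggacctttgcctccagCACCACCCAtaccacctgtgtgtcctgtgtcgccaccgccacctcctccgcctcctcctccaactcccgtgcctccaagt

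GC content was 38% in the GRE1 peak, 53% before the inner Fmn1 start, 55% in the intron 7 window and 64.7% in the exon peak. The exact GLI motif was in none of the 48 peaks. With 1 differing letter it was found in the widest Shh-/-;Gli3-/- peak, as AGGGTGGTC at 113580750, GAACACCCA at 113581934 and GACCACCGA at 113582367, and in the WT exon peak as CACCACCCA at 113525620. The GRE1 peak held no match to these motifs. For comparison, 200 bp windows centred on the largest statistic of every peak were searched. The exact GLI motif was in 0 of the region's windows, against 0.203% of the WT, 0.184% of the Shh-/- and 0.156% of the Shh-/-;Gli3-/- list. At shares so low, its absence from 48 peaks does not set the region apart. A GLI match with at most 1 differing letter was in 2 of 15 WT, 1 of 8 Shh-/- and 0 of 25 Shh-/-;Gli3-/- windows of the region, against 4.85%, 4.76% and 4.31% of the whole lists. The E-box was in 2, 1 and 2 windows, against 11.0%, 11.8% and 11.9%, and CAATAAA, a sequence bound by posterior HOX proteins, was in 1, 0 and 0, against 1.86%, 2.36% and 3.08%. These are letter matches, and binding was not measured.

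The main pattern was a greater length covered by peaks in the double mutant. Its larger number of peaks, 25 against 15 in WT, fell to 17 against 15 with lists of equal size. The bases under peaks summed to 3.4 kb for WT, 2.75 kb for Shh-/- and 10.7 kb for Shh-/-;Gli3-/-. The Shh-/-;Gli3-/- coverage was thus 3.15 times that of WT, while the whole Shh-/-;Gli3-/- list covered 1.66 times as much as the whole WT list. The Shh-/- coverage was 0.809 times that of WT, whereas the whole Shh-/- list covered 1.25 times as much as the WT list. The whole lists are an unlike background, since they hold more promoter peaks. These were 4 of 15 WT, 3 of 8 Shh-/- and 2 of 25 Shh-/-;Gli3-/- peaks in the region, and 53.5%, 48.6% and 39.1% of the lists. Away from promoters the region's coverage was 2.2, 1.1 and 8.9 kb. Widths ran from 100 to 500 bp in WT (median 150), from 150 to 700 bp in Shh-/- (median 250) and from 100 to 2350 bp in Shh-/-;Gli3-/- (median 250), beside medians of 250, 250 and 300 bp over the lists.

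**Figure D1:**
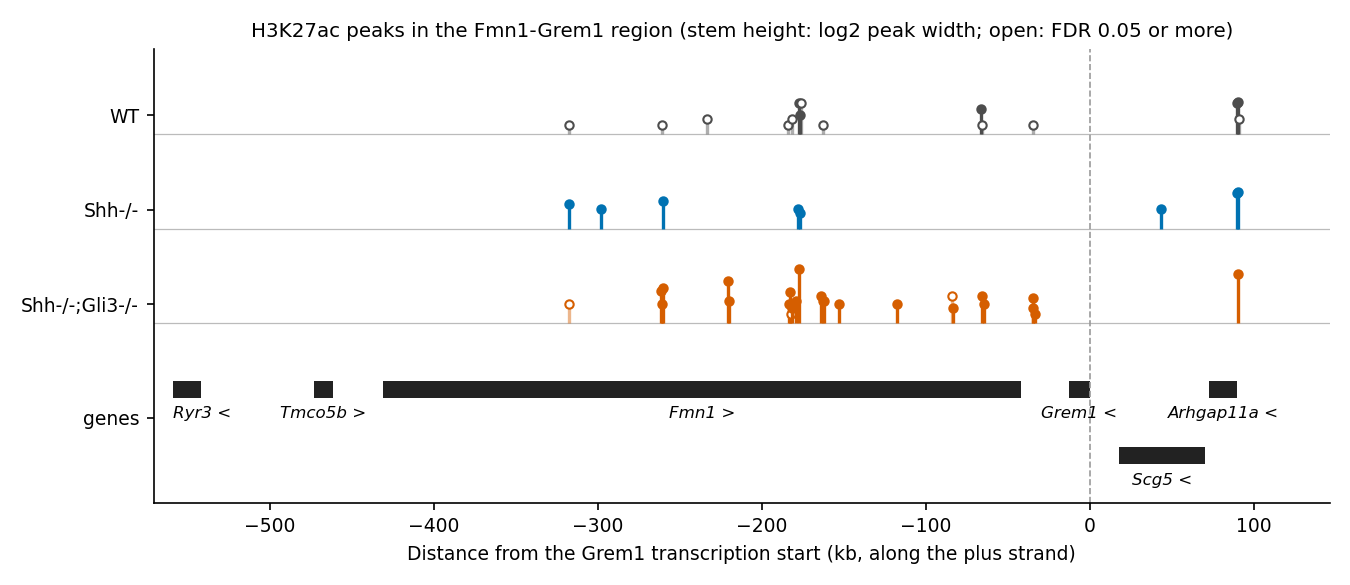
Position of every H3K27ac peak by its distance in kb from the Grem1 transcription start, for the 3 lists, with protein-coding genes below. Stem height is the logarithm of peak width, and open circles are peaks with an FDR of 0.05 or more. The Shh-/- row is empty over 219.5 kb around Grem1, a stretch bounded by Shh-/- peaks and so chosen to hold none. The Shh-/-;Gli3-/- row holds 12 peaks there and the WT row 5, including one that touches a Shh-/- peak.

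Many WT peaks of the region were weak. The false discovery rate (FDR) that the peak caller gave was below 0.05 for 5 of 15 peaks in WT, for 8 of 8 in Shh-/- and for 21 of 25 in Shh-/-;Gli3-/-, whereas 60.8%, 72.4% and 83.4% of the whole lists passed. With the peaks that failed set aside, coverage was 1.9 kb for WT, 2.75 kb for Shh-/- and 9.8 kb for Shh-/-;Gli3-/-. The larger Shh-/-;Gli3-/- coverage therefore held, and the order of WT and Shh-/- was exchanged. The cut is not alike between lists, because the same FDR falls at different scores (largest statistics). A WT peak at 113582350 with a score of 3.51 had an FDR of 0.106. A Shh-/-;Gli3-/- peak at 113675300 with a score of 3.42 had an FDR of 0.0384. Differences between lists at this cut can therefore be partly those of the lists. Fold over input is given here only within a list, because each list is relative to another input. The median log2 fold was 2.41 for the region's WT peaks beside 2.70 for the WT list, 2.98 beside 2.89 for Shh-/- and 2.43 beside 2.66 for Shh-/-;Gli3-/-. Only 2 of 15 WT peaks were above the median of their list, and both lay at the Arhgap11a promoter. In Shh-/- 4 of 8 peaks were above it, and in Shh-/-;Gli3-/- 9 of 25.

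**Figure D2:**
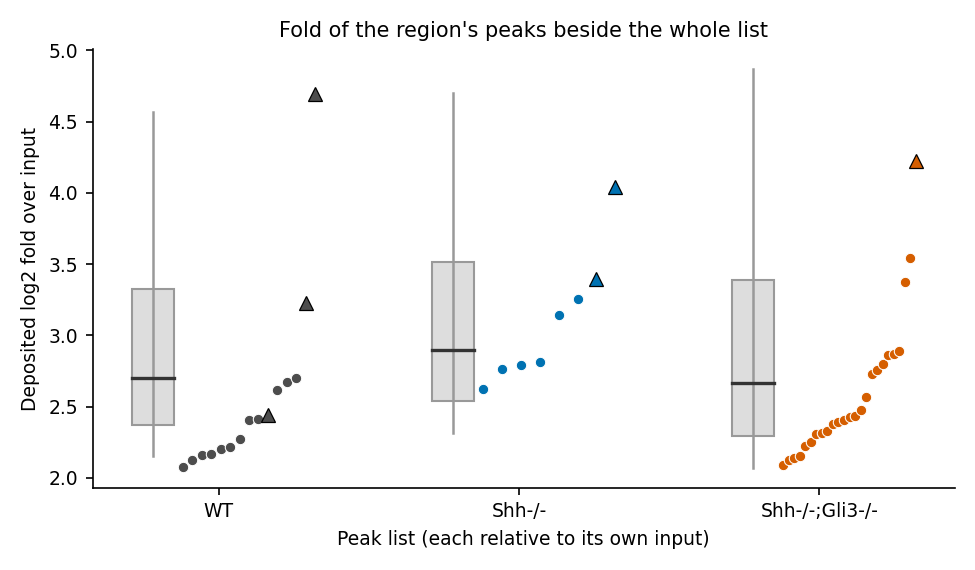
Deposited log2 fold over input of each peak of the region (circles, with triangles for the Arhgap11a promoter), sorted within its list, beside the whole list (bar from the 5th to the 95th percentile, box for the quartiles, line for the median). In each list the Arhgap11a promoter holds the peak with the highest fold of the region, 4.69 in WT, 4.04 in Shh-/- and 4.22 in Shh-/-;Gli3-/-.

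Promoters were examined first. Of the 6 protein-coding genes that lie in or reach into the region, Arhgap11a and Fmn1 had promoter peaks (2 kb before to 1 kb after the start of a transcript). Ryr3, Tmco5b, Grem1 and Scg5 had none. Grem1 (113746164 to 113758646, minus strand) had no peak in the gene or within 10 kb of it in any list. The nearest peak to its start was 34.3 kb away for WT, 43.2 kb for Shh-/- and 33.5 kb for Shh-/-;Gli3-/-. The lists therefore give no measure of acetylation at Grem1 itself, WT included. Only distal peaks remain, and which gene each of them acts on was not measured.

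Fmn1 (113327736 to 113716767, plus strand) has several annotated starts. The outer starts at 113327736 and 113327782, and that at 113363840, had no peak in any list. The inner start, at 113441064, had a peak close by in every list. It lay from 113441100 to 113441199 in WT, over exon sequence with 5′ UTR and with an FDR of 0.297. In Shh-/- it lay from 113440750 to 113441049 (FDR 0.0441) and in Shh-/-;Gli3-/- from 113440800 to 113440999 (FDR 0.0725), both just upstream of that start. The WT peak did not overlap the mutant peaks, from which it was 50 and 100 bp away. The noncoding antisense genes Gm13963 and Gm13966 overlap Fmn1 here, and the mark cannot be assigned to a strand.

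At the other end of the region lies Arhgap11a. Its promoter had peaks in all lists. WT peaks spanned 113848150 to 113848599, 113848750 to 113849249 and 113849400 to 113849549, with log2 folds of 3.23, 4.69 and 2.44. Shh-/- peaks spanned 113847950 to 113848599 and 113848700 to 113849399, with folds of 3.39 and 4.04. In Shh-/-;Gli3-/- a single peak of 1600 bp reached from 113848000 to 113849599, with a fold of 4.22. Coverage here was 1.1, 1.35 and 1.6 kb, so that the Shh-/-;Gli3-/- value was 1.45 times the WT value. At the remaining peaks of the region the corresponding ratio was 3.96 (9.1 against 2.3 kb).

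The peaks away from promoters were mostly inside Fmn1. With the inner start counted, 11 WT, 5 Shh-/- and 21 Shh-/-;Gli3-/- peaks lay in the gene. Of these, 7, 5 and 17 lay wholly in introns, and 4 WT and 4 Shh-/-;Gli3-/- peaks touched an exon. Introns 1 and 2, of 36.0 and 63.8 kb, held no peak. Before the midpoint of Fmn1 there were 2 WT peaks covering 0.2 kb, 3 Shh-/- peaks covering 0.85 kb and 4 Shh-/-;Gli3-/- peaks covering 1.5 kb. Past the midpoint there were 9 WT peaks covering 2 kb, 2 Shh-/- peaks covering 0.35 kb and 17 Shh-/-;Gli3-/- peaks covering 7.05 kb. At an FDR below 0.05 these numbers were 3, 2 and 14, with 0.95, 0.35 and 6.35 kb. Peaks that failed this cut thus made up 6 of the 9 WT peaks past the midpoint, but 3 of the 17 Shh-/-;Gli3-/- peaks. As said above, the cut is not alike between the lists.

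Peaks of any list that lay within 2 kb of each other were joined, which gave 15 clusters. WT peaks were in 9 of them, Shh-/- peaks in 6 and Shh-/-;Gli3-/- peaks in 12. All lists were present in 4 clusters, WT and Shh-/-;Gli3-/- in 4, Shh-/-;Gli3-/- alone in 4, Shh-/- alone in 2 and WT alone in 1. No cluster held WT and Shh-/- without Shh-/-;Gli3-/-. Over the genome, 29298 clusters were built in the same way. All lists were present in 37.9% of them, WT and Shh-/-;Gli3-/- in 3.97%, Shh-/-;Gli3-/- alone in 19.4%, Shh-/- alone in 18% and WT alone in 11.1%. These counts moved with the threshold. With only peaks of FDR below 0.05, 14 clusters kept a peak, of which 2 held all lists, 1 WT and Shh-/-;Gli3-/-, 1 both mutants, 7 Shh-/-;Gli3-/- alone and 3 Shh-/- alone. The genome shares were then 38.8%, 3.40%, 11.7%, 24.9% and 14.9%. In each of the 8 clusters where WT and Shh-/-;Gli3-/- both had peaks, more bases were covered in Shh-/-;Gli3-/-. Over the genome this held for 78% of 12252 such clusters. Shh-/- covered more than WT in 3 of 4 shared clusters, against 62.2% of 11669.

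**Figure D3:**
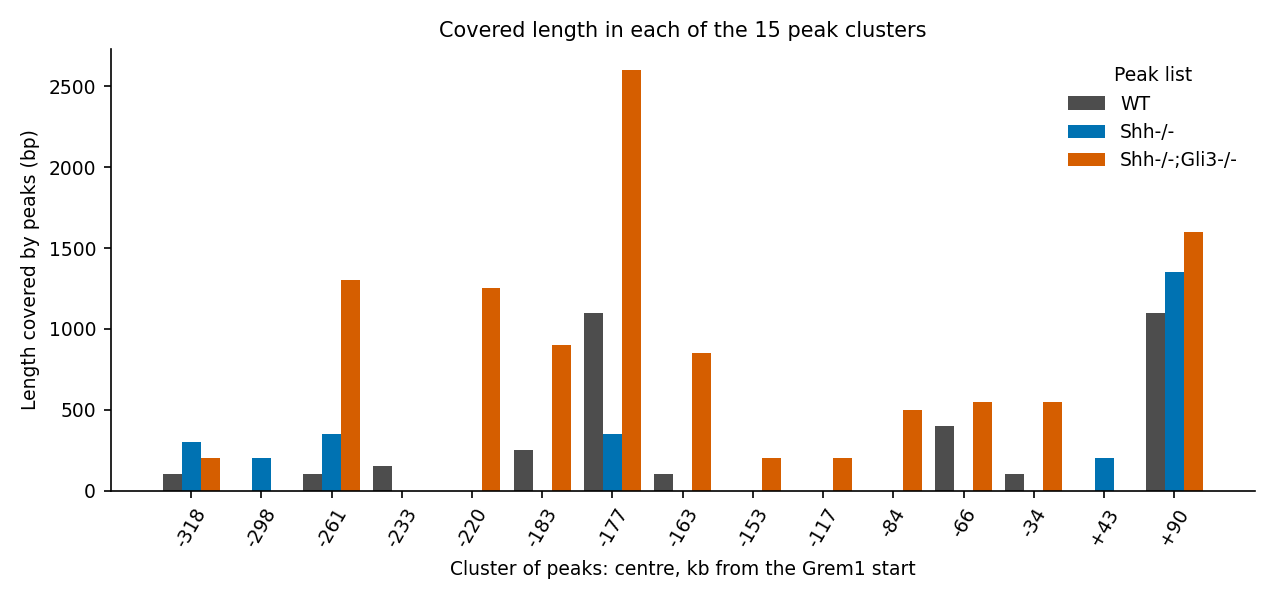
Length covered by peaks, in bp, in each of the 15 clusters and each list; clusters are named by the distance of their centre from the Grem1 start in kb. The largest bar is that of Shh-/-;Gli3-/- at 177 kb, with 2600 bp against 1100 bp in WT and 350 bp in Shh-/-.

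The cluster in intron 5 of Fmn1, 261 kb from the Grem1 start, was present in all lists. Shh-/-;Gli3-/- had peaks of 500, 200 and 600 bp from 113497300 to 113498899. The Shh-/- peak (113498450 to 113498799, log2 fold 2.81) lay inside the last of them, and the WT peak (113497650 to 113497749, FDR 0.210) inside the first. The WT and Shh-/- peaks were thus 700 bp apart and marked different bases of the same cluster. Intron 4 held a peak in Shh-/- alone, from 113460350 to 113460549 (log2 fold 2.76, FDR 0.0181).

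Intron 7 held the strongest of the peaks that Shh-/-;Gli3-/- alone had. From 113537700 to 113538699 Shh-/-;Gli3-/- had a peak of 1000 bp with a log2 fold of 3.38 (FDR 0.000889), followed by a peak of 250 bp. The nearest WT peak was 12 kb away. It was the 150 bp peak in a coding exon, at 113525550, with an FDR of 0.106. The nearest Shh-/- peak was 38.9 kb away.

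At the end of intron 8, about 177 kb from the Grem1 start, lay the cluster with the most bases covered away from promoters in WT and Shh-/-;Gli3-/-. In Shh-/- the cluster of intron 5 covered as much, with 350 bp each. The Shh-/-;Gli3-/- peak from 113580200 to 113582549 was 2350 bp wide, with a log2 fold of 3.54, and reached over an exon into intron 9. A further Shh-/-;Gli3-/- peak of 250 bp lay before it, at 113579700. In the place of the wide peak, WT had peaks from 113580900 to 113581349 (log2 fold 2.70), 113581950 to 113582149 (2.67) and 113582350 to 113582799 (2.41), the first 2 of them with FDRs of 0.0181 and 0.0189. Shh-/- had peaks of 200 bp from 113580700 to 113580899 (log2 fold 3.14) and of 150 bp from 113582200 to 113582349 (2.79). No WT and Shh-/- peak shared a base here, although their edges touched in 2 places. A few kb upstream in the same intron, WT had weak peaks at 113574700 and 113577250 (FDR 0.341 and 0.254), Shh-/- had none, and Shh-/-;Gli3-/- had 4 peaks from 113575300 to 113577199, of which 3 had an FDR below 0.05.

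**Figure D4:**
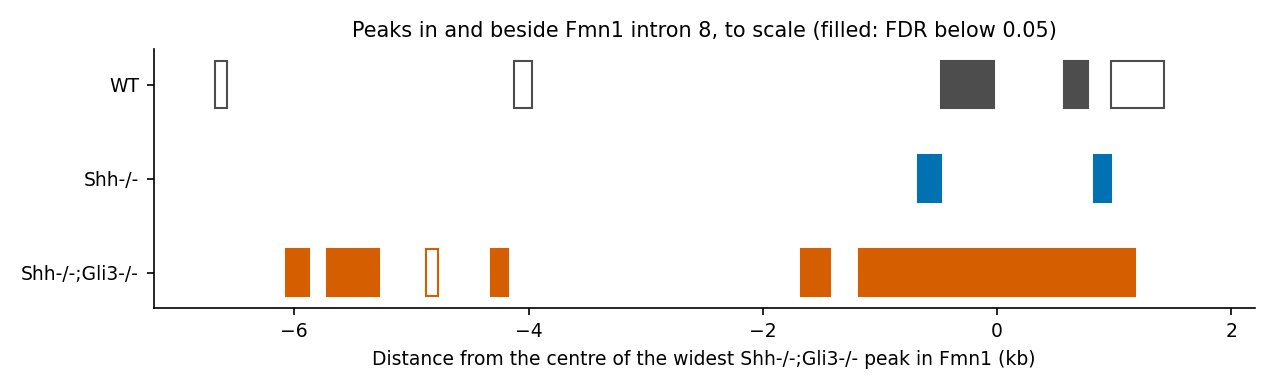
Peaks in and beside Fmn1 intron 8, drawn to scale by distance in kb from the centre of the widest Shh-/-;Gli3-/- peak; filled boxes have an FDR below 0.05. The peak of 2350 bp in Shh-/-;Gli3-/- overlaps 3 WT and 2 Shh-/- peaks, and the WT and Shh-/- boxes meet without overlapping.

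From the last Shh-/- peak of that cluster to the far side of Grem1 the Shh-/- list was empty. No Shh-/- peak lay between 113582350 and 113801849, a stretch of 219.5 kb that holds the last part of Fmn1, GRE1 and Grem1. Its bounds are Shh-/- peaks, so the absence follows from how the stretch was chosen. Of 3882 genome windows of 700 kb, 22.6% held no Shh-/- peak. Over the bases of this stretch WT had 5 peaks covering 1.05 kb and Shh-/-;Gli3-/- had 12 peaks covering 2.85 kb. The 5 WT peaks include the 450 bp peak from 113582350 to 113582799, which belongs to the cluster above and touches a Shh-/- peak. The wide Shh-/-;Gli3-/- peak of that cluster, which reaches into the stretch, is not counted. At an FDR below 0.05 there remained 1 WT peak of 0.3 kb and 10 Shh-/-;Gli3-/- peaks of 2.25 kb. No peak in the stretch reached a log2 fold of 3. Between neighbouring peaks of the region, the longest gap was 124 kb for WT and 123 kb for Shh-/-;Gli3-/-. Both gaps ran from the last peak before Grem1 to Arhgap11a. A longer empty stretch, shared by every list, opened the region, where at least the first 240.75 kb held no peak.

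GRE1 was covered in a single list. The peak from 113641350 to 113641549, 117 kb from the Grem1 start, was found in Shh-/-;Gli3-/- limb buds with a log2 fold of 2.38 (percentile 31.4 of its list) and an FDR of 0.0158. It was a small peak of 200 bp and the only one within 5 kb of that position. The nearest WT peak was 45.5 kb away and the nearest Shh-/- peak 59 kb away. Acetylation of GRE1 was therefore not detected in WT at the depth of this list, although WT limb buds express Grem1. In these lists the absence of a Shh-/- peak cannot be read as a loss from WT. The paper's standard ChIP-seq on pooled limb buds did class GRE1 as acetylated in WT and not in Shh-/-. The paper also reports that MicroChIP gave a weaker signal than that protocol.

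Other peaks of Shh-/-;Gli3-/- alone lay in intron 14 at 113605550 (FDR 0.0123) and in intron 15 at 113674700 and 113675300 (FDR 0.0850 and 0.0384). Further clusters were shared by WT and Shh-/-;Gli3-/-. Around intron 12, WT had a peak of 100 bp at 113595750 (FDR 0.312), and Shh-/-;Gli3-/- had peaks of 350, 250 and 250 bp beginning at 113594800, 113596050 and 113596350. Around intron 16, the WT peak at 113692100 (300 bp, log2 fold 2.62, FDR 0.0330) was the only WT peak of the empty Shh-/- stretch that passed an FDR of 0.05. A WT peak of 100 bp at 113693150 lay within the Shh-/-;Gli3-/- peak from 113692900 to 113693249 (log2 fold 2.76), and Shh-/-;Gli3-/- had another at 113693950. The noncoding antisense gene 4930533B01Rik overlaps Fmn1 here.

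The peaks nearest to Grem1 were intergenic, between the end of Fmn1 and the end of Grem1 and about 34 kb from the Grem1 start. Shh-/-;Gli3-/- had peaks of 150, 300 and 100 bp at 113723800, 113724050 and 113725050, with FDRs of 0.0256, 0.00153 and 0.0217. WT had a peak of 100 bp at 113724200 inside the second of them, with an FDR of 0.254, and Shh-/- had none. On the other side of Grem1, an intron of Scg5 (secretogranin V, a protein of secretory granules) held a Shh-/- peak from 113801850 to 113802049 with a log2 fold of 3.25 and an FDR of 0.000270, and no peak of the other lists.

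Overlap of single peaks, counted as at least 1 shared base, gave the same order. Of the 15 WT peaks, 2 (13.3%, Wilson 95% interval 3.74 to 37.9%) overlapped a Shh-/- peak, and 9 (60%, 35.7 to 80.2%) overlapped a Shh-/-;Gli3-/- peak. Over the whole WT list these shares were 63.4% and 70.8%. That list has 53.5% promoter peaks, against 4 of 15 in the region, and shares for peaks away from promoters are not given here. The intervals cover counting error over peaks, which are not replicates. The 2 WT peaks with a Shh-/- peak were those of the Arhgap11a promoter, and outside that promoter the count was 0 of 12. This count depended on edges, since 3 further WT peaks touched a Shh-/- peak without sharing a base. With a gap of up to 500 bp allowed, 7 of 15 WT peaks had a Shh-/- counterpart and 14 a Shh-/-;Gli3-/- counterpart, against 76.7% and 81.6% of the whole list. The shares for Shh-/-;Gli3-/- were thus near those of the list, and those for Shh-/- were lower. No base was shared with a peak of either mutant by 6 of 15 WT peaks (24.1% of the list), of which 5 had a Shh-/-;Gli3-/- peak within 500 bp.

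In the other direction, 2 of 8 Shh-/- peaks overlapped a WT peak (48.4% of the list), 6 overlapped a Shh-/-;Gli3-/- peak (61.2%) and 2 overlapped neither (35.3%). Of the 25 Shh-/-;Gli3-/- peaks, 5 overlapped a WT peak (43.3% of the list), 4 a Shh-/- peak (49.4%) and 18 neither (72%, 52.4 to 85.7%, against 44.4% of the list). Of these 18 peaks, 15 lay in Fmn1 past its midpoint. In 12 of the 18 the cluster also held a peak of another list, so that they extended a group of peaks, and 6 lay in clusters of Shh-/-;Gli3-/- alone. The list shares include promoter peaks, which were 39.1% of the Shh-/-;Gli3-/- list and 2 of 25 here. The gap from the list share therefore cannot be assigned to this locus.

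To see how such numbers vary along the genome, peaks were counted in 3882 windows of 700 kb. The median window held 4 WT, 5 Shh-/- and 6 Shh-/-;Gli3-/- peaks. The region, with 15, 8 and 25, lay above 86.9%, 62.6% and 92.1% of windows. Among 1723 windows with 5 or more WT peaks, the median ratio of Shh-/- to WT peaks was 1.18 and that of Shh-/-;Gli3-/- to WT peaks 1.17. The region had ratios of 0.533 and 1.67, and 1.92% and 79.2% of those windows had lower values. With peaks of FDR below 0.05 the ratios were 1.6 for Shh-/- (median 1.38 over 1198 windows, 67.6% below) and 4.2 for Shh-/-;Gli3-/- (median 1.5, 98.5% below). Both of these ratios divide by only 5 WT peaks, and the FDR cut is not alike between the lists. The low place of Shh-/- among windows was thus seen with all listed peaks and not with the stricter ones. Coverage over all listed peaks was ranked in the same way. The Shh-/-;Gli3-/- to WT ratio of 3.15 was above 93.2% of the 1723 windows (median 1.45). Away from promoters it was 4.05, above 87.3% of 835 windows with 5 or more such WT peaks (median 1.99). The Shh-/- to WT ratios of 0.809 and 0.5 were above 6.21% and 6.23% of these windows (medians 1.19 and 1.29).

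**Figure D5:**
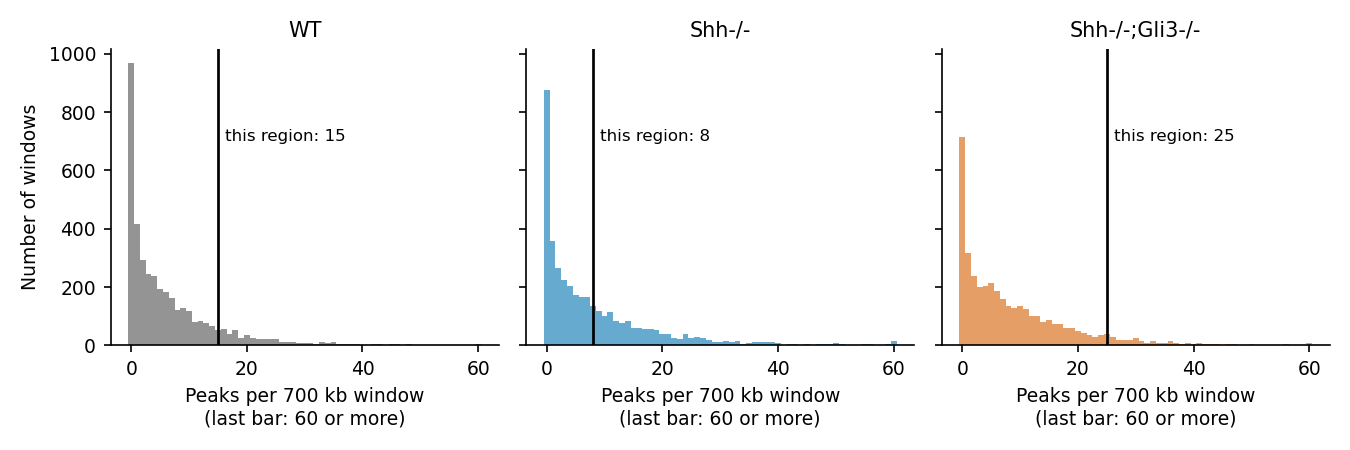
Number of H3K27ac peaks per 700 kb window over 3882 windows of the genome, for each list, with a line at the count in the region. The region holds 15 WT, 8 Shh-/- and 25 Shh-/-;Gli3-/- peaks, beside medians of 4, 5 and 6.

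Other genes of the loop between SHH, GREM1 and FGFs were counted by peaks in the gene and within 10 kb of it. Of 15 genes, 13 had a peak in WT, 11 in Shh-/- and 12 in Shh-/-;Gli3-/-. Shh and Fgf4, ligands that are expressed in few cells, had none in any list, as at Grem1. Of the 13 genes with a peak, coverage was larger in Shh-/-;Gli3-/- than in WT at 11 and smaller at 2 (Gli1 and Msx2). Of 14422 protein-coding genes with a peak, 72.5% had larger and 18.2% smaller coverage, a split close to that of the loop genes. In Shh-/- it was larger at 6 genes (63.2% of all) and smaller at 7 (28.7%). Fgf10, the mesenchymal ligand that maintains the ridge, had 2.75 kb covered for WT, 2.3 kb for Shh-/- and 8.8 kb for Shh-/-;Gli3-/-. Hoxa13, which encodes a transcription factor of the distal limb, had 0.3, 0.1 and 1.35 kb. Among the BMP ligands, Bmp4 had 1.95, 3.4 and 3.35 kb and Bmp7 had 1.85, 4.4 and 6.3 kb, so both were more covered in both mutants. Msx2, a target of BMP signalling, had 2.7, 7.45 and 1.95 kb. Fmn1 counted in the same way had 2.3, 1.2 and 9.1 kb. Lower coverage than WT in Shh-/- together with higher coverage in Shh-/-;Gli3-/-, as at Fmn1, was found at 6 of these 13 genes (Ptch1, Hand2, Hoxa13, Hoxd13, Fgf8 and Fgf10), against 15.8% of all genes with a peak. Neighbouring genes can share peaks, and the difference was not tested. All listed peaks were counted, and some differences were small (Fgf8 had 0.6, 0.5 and 0.7 kb). At an FDR below 0.05 the WT peaks of Fmn1 covered 0.95 kb, all past the midpoint. Those of Shh-/- covered 0.85 kb before it and 0.35 kb past it. The lower Shh-/- coverage at Fmn1 thus did not hold at this cut, which is not given for the other genes.

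The tissue was checked by promoter peaks. All of 6 forelimb mesenchyme markers (Tbx5, Prrx1, Prrx2, Twist1, Lhx2 and Lhx9) had a promoter peak in every list. None of 2 hindlimb markers (Pitx1 and Tbx4) and 8 markers of other tissues or cell types had one (Alb, Nkx2-5, Myh6, Gata1, Hba-a1, Cdh5, Kdr and Neurod1). A missing peak does not show that such cells were absent from the limb bud. The bounds of the region cut through no group of peaks. The outermost peaks inside lay at least 240.75 kb and 50.4 kb from its ends. Outside, the next peaks lay 275 kb past its end in every list. Before its start they lay 706 kb away in WT and Shh-/-;Gli3-/- and 37.4 kb away in Shh-/-.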

How the data were processed

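H3K27ac was profiled in 6 MicroChIP-seq libraries and 3 inputs. Titles gave the groups, since the characteristic for genotype says wild type throughout. Per the labels, reads were aligned to mm10, and the submitters' processing notes name Bowtie2 2.2.5. The authors called peaks against input with CisGenome. The list of each genotype is attached to its replicate 1, and whether replicates were pooled is not stated. The deposited lists give positions in steps of 50 bp, a score (the largest statistic), the log2 fold over input, a −log10 Poisson p-value that stops at 100, and the FDR, a q-value. The FDR reached 0.35 in the WT list. The study's methods give only a minimum read depth for the libraries, and the depth of each was not used here.

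Overlaps, clusters, windows and Wilson intervals were computed with pandas 2.3.3, scipy 1.17.1 and numpy 2.4.6 under Python 3.11.15, and matplotlib 3.10.9 drew the figures. Places were taken from GENCODE M21 (basic set, GRCm38) and sequence from RefSeq GRCm38.p6. No peak passed the end of a chromosome. Introns were numbered on the longest Fmn1 transcript, with 19 exons. The overlap rules were tested on 5000 simulated peaks and recovered 100%.

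The region, the gene lists and the motifs were chosen with earlier results of these data known. Named are all promoter peaks, those within 5 kb of GRE1, and the 3 peaks of highest fold in each list; other peaks were added after their values were seen. The 2 kb used for clusters was also set after seeing the data. The alternatives were equal numbers of peaks (the 25096 highest per list), an FDR below 0.05, a minimum log2 fold of 3, narrower bounds, merging within 1 kb, a gap of 500 bp and reciprocal 50% overlap.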

Additional observations from a re-analysis of the deposited data

How the results depend on the processing

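No paired analysis was possible because the lists hold no values per replicate. Leaving out replicates was not possible for the same reason. At an FDR below 0.05 the region kept 5 WT peaks covering 1.9 kb, and 4 WT peaks overlapped a Shh-/-;Gli3-/- peak. At a log2 fold of at least 3 there were 2 WT (0.95 kb), 4 Shh-/- (1.75 kb) and 3 Shh-/-;Gli3-/- peaks (4.95 kb). Here 2 WT peaks overlapped a Shh-/-;Gli3-/- peak, 1 Shh-/-;Gli3-/- peak had no counterpart, and Shh-/- had the most peaks. This cut is not alike between lists, since each is relative to another input. The median fold was highest in the whole Shh-/- list (2.89, beside 2.70 in WT and 2.66 in Shh-/-;Gli3-/-). With equal numbers of peaks, 11 had none. Merging within 1 kb left 12 Shh-/-;Gli3-/- peaks, beside 10 in WT and 7 in Shh-/-. Within 10 kb of Fmn1 and Grem1 there were 5 Shh-/- peaks (1.2 kb), and 0 WT peaks overlapped a Shh-/- peak. Without the Arhgap11a promoter, a setting added after seeing the data, Shh-/- covered 1.4 kb and the overlap was again 0. With a gap of up to 500 bp, 7 WT peaks had a Shh-/- and 14 a Shh-/-;Gli3-/- counterpart. With reciprocal 50% overlap, 0 WT peaks matched a Shh-/-;Gli3-/- peak. Shh-/-;Gli3-/- covered the most under each setting that gave a coverage, and joining clusters within 1 or 5 kb left 4 with Shh-/-;Gli3-/- alone. Lists without depth or replicates cannot show that acetylation is absent where no peak is listed.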
